A study of Homo sapiens with 6 samples.

Results

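The microRNAs (miRNAs) described here are 7 assays for miRNAs known from blood cells and blood vessels: hsa-miR-126, hsa-miR-142-3p, hsa-miR-142-5p, hsa-miR-146a, hsa-miR-150, hsa-miR-155 and hsa-miR-223 (the prefix for human is left out below). They were picked by assay name out of the 377 human miRNA assays on a quantitative PCR card. The cells were HEK-293FT, which derive from human embryonic kidney, express the large T antigen of SV40 and belong to neither lineage. There were 3 samples of control cells and 3 of cells transfected with siRNA against TruB1 (TruB1 KD, called knockdown here), a pseudouridine synthase of transfer RNA. All samples came from this cell line, the labels do not say what the control cells received, and the level of TruB1 was not analysed here. The titles give each sample a series number from 1 to 3, shared by 1 control and 1 knockdown sample. Nothing in the labels says that the samples were separate cultures, so the spread between them may be technical.

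Several of these miRNAs are used as signatures of a cell lineage because their genes are transcribed almost only there. miR-126 is made in endothelial cells from within EGFL7, where it sustains signalling from vascular growth factors. miR-142 is made throughout the blood lineage, miR-223 mainly in granulocytes and monocytes, and miR-150 in mature lymphocytes, where it restrains the transcription factor MYB. miR-146a and miR-155 are induced during immune activation: miR-146a dampens it through TRAF6 and IRAK1, and miR-155, cut from the transcript once named BIC, supports it. A mature miRNA finds its targets mainly through its seed, bases 2 to 8 from the 5′ end.

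Mature sequences were found in RefSeq (GRCh38.p14) for 6 of the 7, miR-150 being the other. They are shown, with the seed in capitals, because each assay reads a single mature strand and because only one of these seeds occurs elsewhere on the card. The deposited assay target equals the RefSeq sequence in 5 of them, and for miR-155 it is the same sequence without the last base.
miR-126 (hsa-miR-126-3p): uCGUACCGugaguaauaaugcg
miR-142-3p: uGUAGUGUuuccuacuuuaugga
miR-142-5p: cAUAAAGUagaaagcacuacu
miR-146a (hsa-miR-146a-5p): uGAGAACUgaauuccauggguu
miR-155 (hsa-miR-155-5p): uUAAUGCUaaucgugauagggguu
miR-223 (hsa-miR-223-3p): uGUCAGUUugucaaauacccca
The mature strand of miR-126 lies at chr9:136670653-136670674 on the plus strand, inside the protein-coding gene EGFL7. The other 4 hairpins lie inside long noncoding RNA genes. miR-146a is at chr5:160485372-160485393 (plus strand) in MIR3142HG, miR-155 at chr21:25573983-25574006 (plus strand) in MIR155HG, and miR-223 at chrX:66018937-66018958 (plus strand) in MIR223HG. Both arms of miR-142 lie on the minus strand of chromosome 17 in MIR142HG and TSPOAP1-AS1, with miR-142-3p at chr17:58331245-58331267 and miR-142-5p at chr17:58331283-58331303.

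The raw readout is the threshold cycle (Ct), at which the fluorescence of a well passes a fixed level. Abundant miRNAs have a low Ct, and with full efficiency a gap of 1 cycle stands for 2-fold. A well with no crossing in 40 cycles is recorded as undetermined, and a Ct under 35 was taken as detected. A card carried a single well for each miRNA and 4 for the small nuclear RNA U6, which served as reference. Between 188 and 226 of the 377 assays were under 35 in a sample, and 4 of the 24 U6 wells were undetermined: 2 in control sample 3 and 1 each in knockdown samples 2 and 3. Mean U6 Ct was 12.2 in control sample 3 and between 13.2 and 15.4 in the other samples. The precision is limited by the single well per miRNA and by 3 samples a group.

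Most of these blood and endothelial miRNAs gave a signal in this kidney line, but only miR-126 gave an early one. Under Ct 35 in all 6 samples were 2 of the 7, miR-126 and miR-146a, against 41.6% of all 377 assays. Of the other members, miR-142-3p and miR-223 were under 35 in 5 samples, miR-155 in 4, miR-150 in 2 and miR-142-5p in none. Over all 377 assays, the shares under 35 in exactly 5, 4, 2 and 0 samples were 5.57%, 4.24%, 5.31% and 29.2%. Without any Ct in the 6 samples was 1 of the 7, against 26.8% of all assays, so some signal was usual on this card. Undetermined wells were 11 of 42 (26.2%) among the members and 44% over the whole card. Per sample, 3 to 6 of the 7 were under 35, the fewest in knockdown sample 3 and the most in knockdown sample 1.

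**Figure D1:**
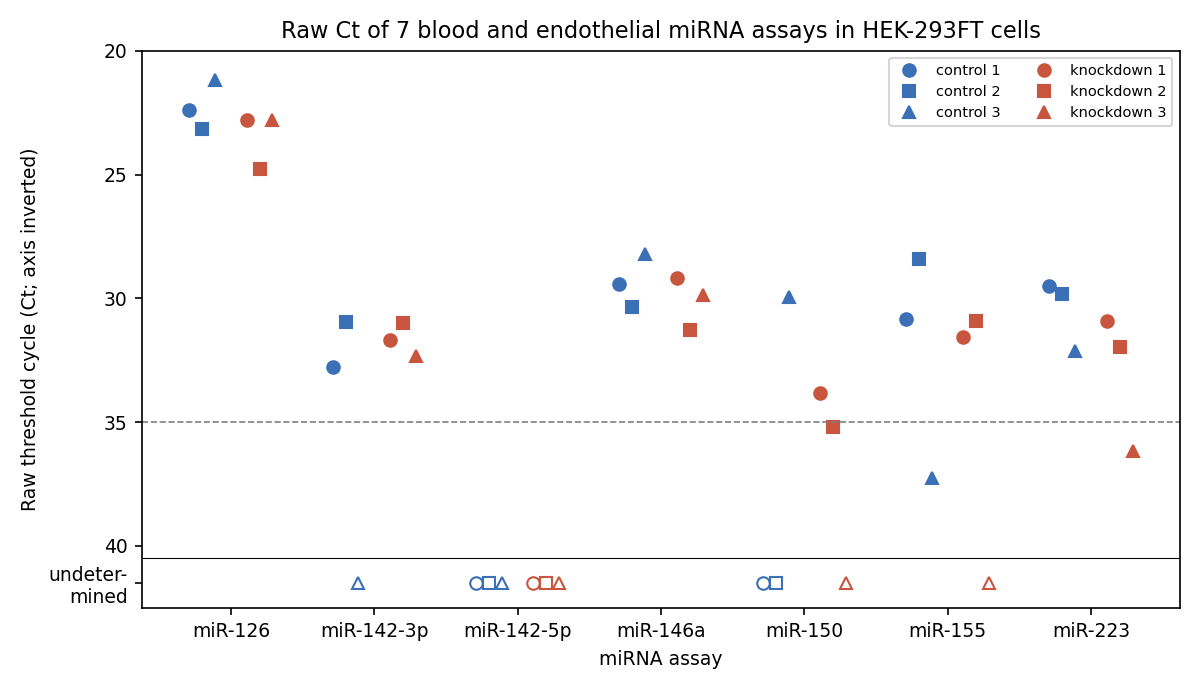
Raw threshold cycle of the 7 assays (vertical axis inverted, so that more template is higher) in each control (blue) and knockdown (red) sample, with symbols for the series number, the dashed line at Ct 35 and open symbols for undetermined wells. miR-126 sits between 21.2 and 24.8 in every sample, miR-142-5p is undetermined in all 6, and the low points of miR-155 and miR-223 are in series 3.

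hsa-miR-126, the endothelial member, had a Ct of 22.4, 23.2 and 21.2 in the control samples of series 1, 2 and 3, and of 22.8, 24.8 and 22.8 in their knockdown partners. All 6 wells were earlier than every well of the other members, whose earliest was 28.2, so no overlap existed between miR-126 and the rest. By mean raw Ct it ranked 22nd of the 161 assays with a Ct in all 6 samples. Relative to U6, the control and knockdown samples overlapped. The ratio to U6 was 0.00489, 0.00172 and 0.00189 in the control samples of series 1, 2 and 3, and 0.00413, 0.00156 and 0.00133 in the knockdown samples. On this scale the sample pair of series 1 was thus higher than those of series 2 and 3 in both groups. Relative to the mean Ct of the assays under 35 in all 6 samples, series 3 was instead the highest in both groups. Those log2 levels were 3.46, 3.44 and 4.73 in the control samples of series 1, 2 and 3. In the knockdown samples they were 3.39, 2.93 and 4.82.

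hsa-miR-146a, the inducible brake on immune signalling, was detected late but in every sample. Its Ct was 29.4, 30.3 and 28.2 in the control samples of series 1, 2 and 3, and 29.2, 31.3 and 29.9 in the knockdown samples, with overlapping groups, and it ranked 125th of the 161 assays. Of the 6 members with a sequence here, it is the only one whose seed occurs in another assay of the card, that of miR-146b, encoded on chromosome 10. The pair is shown because the assays have to tell these strands apart by their 3′ ends.
miR-146a: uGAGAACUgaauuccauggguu
miR-146b: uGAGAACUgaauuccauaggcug
Counted from the 5′ end, they differ by G18A and U21C (the miR-146a base first) and by 1 further base at the 3′ end of miR-146b, which the deposited assay target of miR-146b does not include. The assay for miR-146b crossed earlier in all 6 samples, at Ct 23.6 to 26.8. The gap between both assays was 4.57 ± 0.413 cycles (SD, n = 6) and lay between 3.87 cycles in knockdown sample 1 and 5.10 in control sample 2. Whether part of the miR-146a signal came from miR-146b template was not tested.

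The hairpin of miR-142 holds both arms that the card measures, hsa-miR-142-5p and hsa-miR-142-3p, and they gave different readouts. It is shown with miR-142-5p and then miR-142-3p in capitals.
MIR142 (chr17:58331232-58331318, minus strand): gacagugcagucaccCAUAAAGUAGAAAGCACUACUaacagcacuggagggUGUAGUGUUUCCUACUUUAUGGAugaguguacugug
The 5p arm was undetermined in 6 of 6 samples, as were 101 of the 377 assays. The 3p arm had a Ct of 32.8 and 31.0 in control samples 1 and 2, was undetermined in control sample 3, and had a Ct of 31.7, 31.0 and 32.3 in the knockdown samples of series 1, 2 and 3. The 5 determined wells spanned 1.82 cycles, the narrowest range of the members with more than 3 determined wells. On the card, 21 assays were missing in exactly 1 sample, and miR-142-3p was the only one of them missing in control sample 3. The missing well was most often in knockdown sample 3 (9 assays) or knockdown sample 2 (6 assays). In 13 of the 21 the other 5 wells were all under Ct 33, as they were for miR-142-3p. Undetermined wells therefore also occurred in assays whose other wells were all determined before cycle 33.

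hsa-miR-150, the lymphocyte member, was seen in too few samples to be compared. It was undetermined in control samples 1 and 2 and in knockdown sample 3, and had a Ct of 29.9 in control sample 3, 33.8 in knockdown sample 1 and 35.2 in knockdown sample 2. No series number had a value in both groups. On the card, 8 of the 377 assays were determined in exactly 3 samples.

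Among determined wells, hsa-miR-155, the activation-induced member, had the widest Ct range of any member, 8.85 cycles, and was split by series number. Its Ct was 30.8 and 28.4 in control samples 1 and 2 but 37.3 in control sample 3, and 31.6 and 30.9 in knockdown samples 1 and 2 while knockdown sample 3 was undetermined. Both samples of series 3 were therefore at or past the limit of detection, and the other 4 were not. Relative to the mean of the 157 commonly detected assays (those under Ct 35 in all 6 samples), control sample 3 differed by -7.92 on the log2 scale from the mean of control samples 1 and 2. That was the lowest of 183 assays with a Ct in all 3 control samples, whose median difference was -0.03.

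hsa-miR-223, the myeloid member, showed the same split by series number to a smaller extent. Its Ct was 29.5, 29.8 and 32.1 in the control samples of series 1, 2 and 3, and 30.9, 31.97 and 36.2 in the knockdown samples. The latest well of each group was the one from series 3, and the groups overlapped. Relative to the commonly detected assays, the mean of both series 3 samples differed by -3.40 on the log2 scale from the mean of the other 4, and 3 of the 161 complete assays were lower still. miR-126 and miR-146a differed the other way, by 1.48 and 1.21, above 147 and 135 of the 161 assays. Their sign turned with the reference: relative to U6 the differences were -0.78 for miR-126, -1.04 for miR-146a and -5.65 for miR-223, with a median of -2.26 over the 161 assays. These differences between series numbers are descriptions with no test. What a series number stands for is not stated. Control sample 3 had only 2 determined U6 wells. These enter the differences relative to U6 but not those relative to the commonly detected assays.

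**Figure D2:**
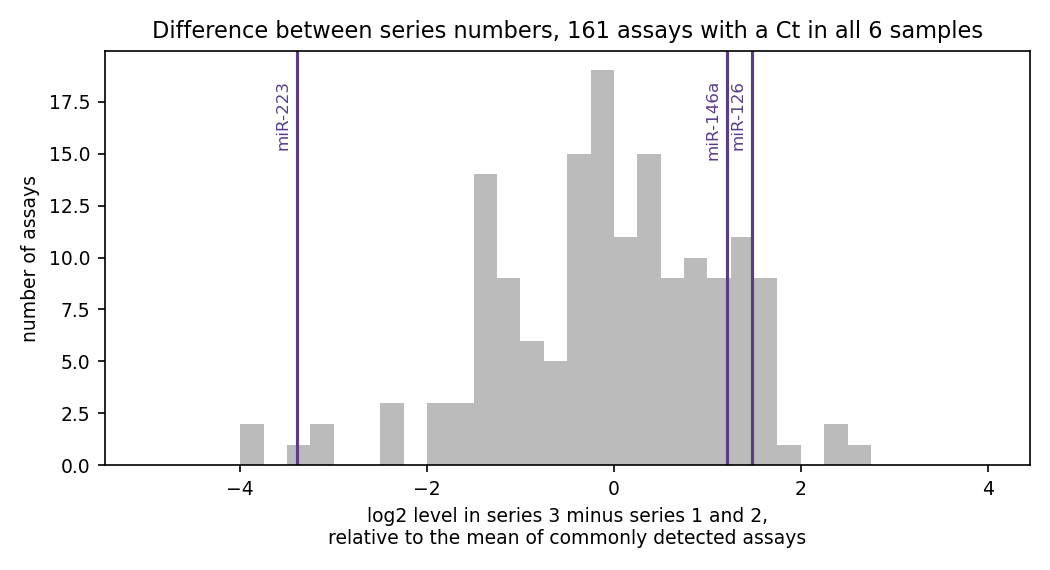
Histogram of the log2 level in the 2 samples of series 3 minus the mean of the 4 samples of series 1 and 2, relative to the mean of commonly detected assays, for the 161 assays with a Ct in all 6 samples, with lines for the 3 members among them. miR-223 lies at -3.40 in the lower tail, and miR-146a and miR-126 lie at 1.21 and 1.48 on the upper side (relative to U6 both are below 0).

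By median raw Ct over determined wells, the order was miR-126 (22.8), miR-146a (29.6), miR-155 (30.9), miR-223 (31.4), miR-142-3p (31.7) and miR-150 (33.8). Only the step from miR-126 to miR-146a was larger than the spread of the samples. The ranges of the later 5 overlapped, from 28.2 to 31.3 for miR-146a, 28.4 to 37.3 for miR-155, 29.5 to 36.2 for miR-223, 31.0 to 32.8 for miR-142-3p and 29.9 to 35.2 for miR-150. The order across assays also carries the efficiency of each assay, which was not used here.

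The design sets knockdown cells against control cells, in a study that asked about TruB1 in the maturation of let-7 miRNAs. Of the 7 members, 5 could be tested, and none rose or fell past an adjusted p of 0.05 in limma. Over all 195 assays tested the share called was 0%, and 0 assays, members included, had an unadjusted p under 0.05. On the log2 scale relative to U6, the tested members had 2 lower and 3 higher means in knockdown with a median of 0.13, beside 116 lower and 79 higher and a median of -0.10 over all 195. When the series number entered the fit as a replicate block, 0% of 189 assays passed the adjusted threshold. In that fit, 10 assays (5.29%) had an unadjusted p under 0.05, among them miR-142-3p and miR-223. All estimates and p-values below come from these limma fits, and adjusted p-values are Benjamini-Hochberg values over every assay in the fit. The SEs, intervals and p-values draw on a spread pooled over all assays, so they do not measure a member's own spread alone. Without the block, the SE was 1.46 for miR-126 (control SD 0.83) and 1.72 for miR-155 (control SD 5.74).

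For hsa-miR-126 the mean log2 ratio to U6 was -8.63 ± 0.83 (SD, n = 3) in control cells and -8.93 ± 0.89 (SD, n = 3) after knockdown. The log2 fold change was -0.30 (SE 1.46, adjusted p = 0.999), with a 95% confidence interval from -3.17 to 2.58. The interval with the replicate block ran from -1.27 to 0.68. The pairs of series 1, 2 and 3 gave -0.24, -0.15 and -0.51, so the knockdown sample was lower in 3 of 3. Among the 161 complete assays, 19.3% were lower in all 3 series and 4.35% higher. The raw Ct of miR-126 was later in knockdown by 0.385, 1.62 and 1.60 cycles, and that of the commonly detected assays by 0.314, 1.12 and 1.69 cycles. miR-126 thus moved by less than 1 cycle from the rest of the card in each series.

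For hsa-miR-223 the mean was -16.86 ± 2.75 (SD, n = 3) in control cells and -18.50 ± 3.84 (SD, n = 3) after knockdown. The log2 fold change was -1.64 (SE 1.51, adjusted p = 0.999), smaller than the spread of either group. With the replicate block it had the same size with an SE of 0.546, and its adjusted p was 0.728 (unadjusted p = 0.0193). Within series 1, 2 and 3 the knockdown sample was at 0.407, 0.628 and 0.129 of its control, while the median over all assays with both values was 0.886, 1.23 and 0.714. The value was lower in 3 of 3 series, as for miR-126. The series 3 value rests on a knockdown well at Ct 36.2, past the detection limit. Without knockdown sample 3 the unblocked value was 0.57, and without both samples of series 3 the blocked value was -0.98 (adjusted p = 0.823).

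For hsa-miR-142-3p the knockdown sample was higher than its control in both series that had a pair of values, at 2.32 and 2.74 times the control in series 1 and 2. Without the block, which also uses the unpaired knockdown sample 3, the log2 fold change was 0.37 (SE 1.64, adjusted p = 0.999), and it was -0.43 without knockdown sample 2. It was 1.14 with the commonly detected assays as reference, 1.33 after quantile normalization and 3.82 with undetermined wells set to Ct 40, none past the adjusted threshold. With the block it was 1.33 (SE 0.544, unadjusted p = 0.0486, adjusted p = 0.919). In raw Ct the difference was -1.07 cycles in series 1 and 0.023 cycles in series 2, where U6 was 1.48 cycles later in knockdown. In series 2 the assay itself thus crossed at nearly the same cycle in both samples. The commonly detected assays, however, were 1.12 cycles later in the knockdown sample of that series. Relative to those assays, the log2 level of miR-142-3p was -6.91 in control and -5.52 in knockdown sample 1. In series 2 these levels were -4.37 and -3.27.

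For hsa-miR-155 the group means and the differences within series had opposite signs. The mean was -18.55 ± 5.74 (SD, n = 3) in control cells and -16.08 ± 0.85 (SD, n = 2) after knockdown, where the sample of series 3 is missing, and the log2 fold change was 2.47 (SE 1.72, adjusted p = 0.999). Within series 1 and 2, however, the knockdown sample was at 0.673 and 0.485 of its control. The blocked log2 fold change was -0.81 (SE 0.550, adjusted p = 0.971), and without control sample 3 the unblocked value was also -0.81. Its direction therefore depended on the late well of control sample 3, whose knockdown partner has no value.

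For hsa-miR-146a the log2 fold change was 0.13 (SE 1.46, adjusted p = 0.999), with a 95% confidence interval from -2.75 to 3.01 and, with the block, from -0.93 to 1.18. Within series 1, 2 and 3 the knockdown sample was at 1.30, 1.47 and 0.686 of its control, so the series did not share a direction. This is below the SD within each group (0.90 in control and 1.17 in knockdown, n = 3 each). Its seed partner miR-146b differed by -0.58, -0.11 and -0.58 on the log2 scale in the same series.

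**Figure D3:**
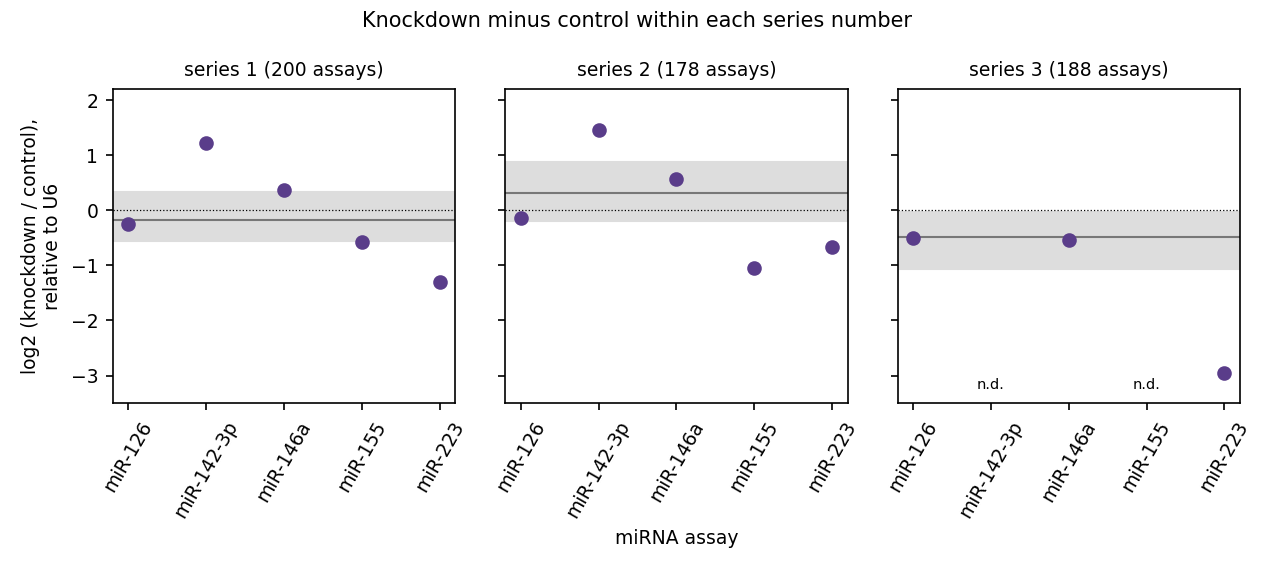
Log2 ratio of knockdown to control relative to U6 within each series number for the 5 tested members (points), with the median (line) and quartiles (grey band) of all assays with both values in that series, and n.d. where a well was undetermined. miR-223 lies below the band in all 3 series, miR-142-3p above it in series 1 and 2, and miR-126 within it.

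**Figure D4:**
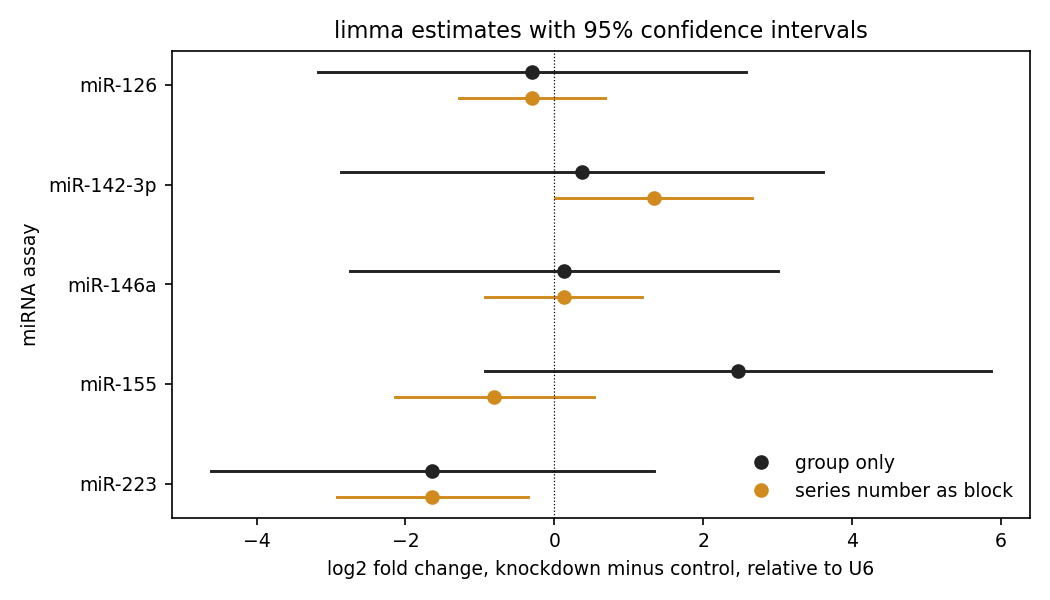
Log2 fold changes of knockdown against control for the 5 tested members from limma (points) with 95% confidence intervals (bars), with group as the only term (black) and with the series number as a block (orange). All black intervals cross 0, the orange ones of miR-223 and miR-142-3p do not before adjustment, and miR-155 changes sign between both fits.

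Other lineage lists on the same card give the setting for these values. All 7 further miRNAs known from blood cells (miR-146b, miR-181a, miR-181c, miR-221, miR-222, miR-339-5p and miR-342-3p), most of them also made in other tissues, were under Ct 35 in all 6 samples. The earliest was miR-222, at Ct 19.9 to 22.4. Among miRNAs abundant in red cells and plasma, miR-486 was under 35 in all 6 samples (Ct 26.1 to 28.8). In contrast, miR-451, the defining red cell miRNA, crossed only in knockdown sample 2 at Ct 35.9, and miR-122, a liver miRNA found in plasma, in none. Of 6 further miRNAs of the vascular wall, 2 were under 35 in all samples, miR-218 (19.3 to 23.6) and miR-139-5p (28.1 to 31.6). The smooth muscle miRNAs miR-143 and miR-145 were determined in 2 and 5 samples, and miR-199a-3p and miR-214 in 5 and 1. Of 10 epithelial and kidney miRNAs, 9 were under 35 in all 6 samples: miR-10a, miR-10b, miR-141, miR-192, miR-194, miR-200b, miR-200c, miR-204 and miR-429. The remaining one, miR-200a, was under 35 in 5 samples. Of 4 muscle miRNAs, miR-133a was under 35 in all 6 samples, miR-1 was determined in 3, miR-133b in 2 and miR-208 in none.

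**Figure D5:**
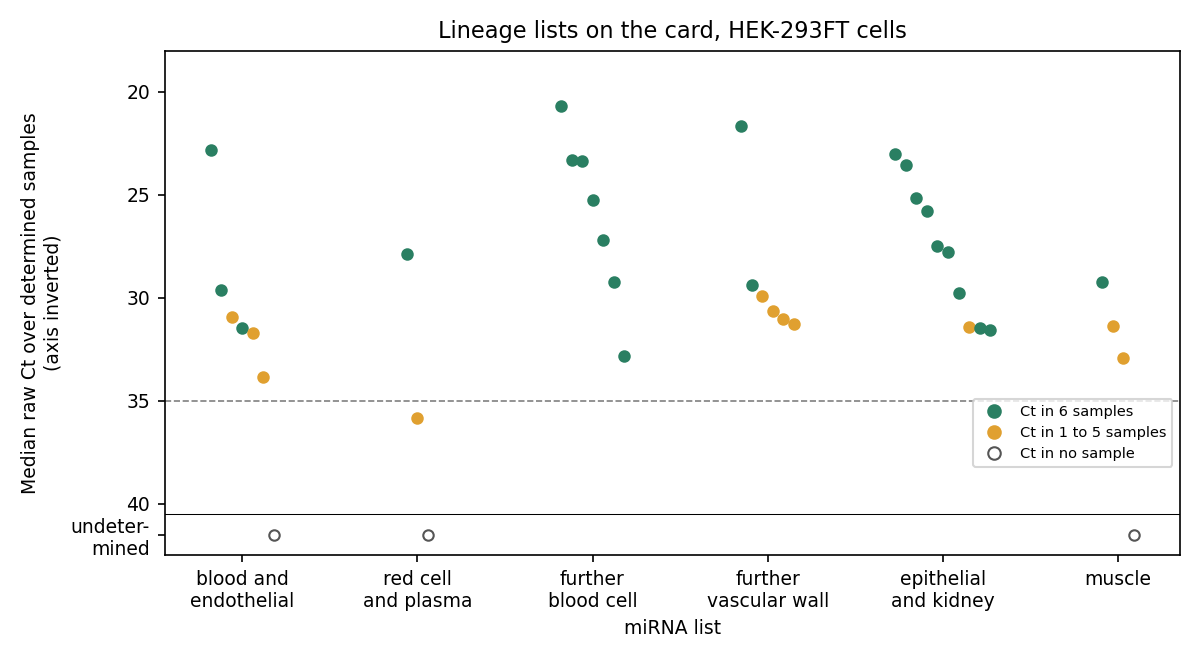
Median raw Ct over determined samples (vertical axis inverted) of each assay in the 7-member list and in 5 other lineage lists, in green for a Ct in all 6 samples, in orange for 1 to 5 samples and open for none, with the dashed line at Ct 35. miR-126 is the single member of the blood and endothelial list before Ct 28. A Ct in all 6 samples was found for 3 of the 7 members, 9 of 10 epithelial and kidney assays and all 7 further blood cell assays. Over the whole card the share was 42.7%.

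None of these lists held an assay past an adjusted p of 0.05 in limma between knockdown and control, as for all 195 assays. The 7 further blood cell miRNAs had 4 higher and 3 lower values with a median log2 fold change of 0.13 and a range from -0.62 to 0.62. The 4 tested vascular wall miRNAs had 2 higher and 2 lower with a median of -0.11, and the 10 tested epithelial and kidney miRNAs 2 higher and 8 lower with a median of -0.14. The 1 tested red cell and plasma miRNA, miR-486, was at 0.20 and the 1 tested muscle miRNA, miR-133a, at 0.06.

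The assays whose levels followed the members most closely over the 6 samples, relative to the commonly detected assays, were miR-28-3p (Pearson r = 0.995) and miR-342-3p (r = 0.983) for miR-126. For hsa-miR-146a they were miR-449 (r = 0.994) and miR-484 (r = 0.968), and for miR-223 they were miR-542-3p (r = 0.981) and miR-125b (r = 0.942). These are the 2 highest of 160 correlations for each member, so no test is given. An r above 0.9 was reached by 18 assays for miR-126, 9 for miR-146a and 6 for miR-223. All share the same 6 samples, of which those of series 3 lie apart for these members.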

How the data were processed

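miRNAs were measured in 3 control and 3 knockdown samples. Per the labels' protocols, total RNA (1000 ng) was reverse transcribed with Megaplex Pool A primers and run on TaqMan array cards for 40 cycles. The threshold and baseline settings are not given in the sources used here. The raw Ct values are used as deposited. On the log2 scale, the deposited ratio to U6 equals the average Ct over a sample's determined U6 wells minus the Ct of the assay, to within 6.8e-06.

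The log2 of the deposited ratio was tested in limma 3.58.1 (R 4.3.3; lmFit and eBayes, two-sided, group as the only term), with undetermined wells missing. An assay was tested if under Ct 35 in at least 3 of 6 samples and determined in 2 or more samples per group, and p-values were adjusted over all 195. miR-142-5p and miR-150 did not meet this rule. The members, lists, named assays (all members and the 2 most similar assays of each complete member) and alternatives were chosen with earlier results of these data known. In the lists, miR-144, miR-206 and miR-30a-5p were not analysed here.

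Same-numbered samples deviated together from their group means (r = 0.416, 0.527 and 0.625 across 161 assays, which are not replicates; -0.536 to 0.249 for different numbers). The numbers were therefore taken, from the data, to pair the samples. In 20 simulations of 195 assays for this comparison, the fit without the block recovered 0% of assays changed by 3 on the log2 scale. The blocked fit recovered 81.9% at 3, 42.7% at 2 and 8.21% at 1, with 1 false call per simulation on average, against 0 without the block. The simulated noise was normal with the same SD for every assay, whereas the SDs of the members differed. These shares therefore do not give the power for a particular member.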

Additional observations from a re-analysis of the deposited data

How the results depend on the processing

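In limma, 0 assays were called at an adjusted p of 0.05 under 16 other settings (0 to 13 at an unadjusted p under 0.05), and 6 were called under a further one added after seeing the data, the replicate block without series 3. None of those 6 was a member, and that fit rests on 2 pairs and a spread pooled over all assays. No member passed in any alternative (smallest adjusted p = 0.384). The replicate block turned miR-155 to -0.81 and, with the commonly detected assays as reference, to -0.90. Undetermined wells at Ct 40 turned miR-155 to -1.09, and the block without series 3 turned it to -0.81. Setting undetermined wells to Ct 40 also moved miR-142-3p to 3.82. Raw Ct, which carries a median shift of -1.0 over all assays, turned miR-146a to -0.78. When 1 sample was left out, 8 of 26 values reversed. The values ran from -0.81 to 0.18 for miR-126, -0.43 to 1.33 for miR-142-3p, -0.51 to 0.65 for miR-146a, -0.81 to 4.53 for miR-155 and -3.19 to 0.57 for miR-223. The cause was not tested. Of 52 values under the other alternatives, 5 reversed, all named above. Some values, here and with 1 sample left out, could not reverse. Settings that change only which assays enter, or how the spread is pooled, leave a log2 fold change as it was. The plain block and Ct 40 also cannot move miR-126, miR-146a and miR-223, which have a Ct in all 6 samples. Leaving out a sample where a member was undetermined cannot move that member. The share reversed is thus no measure of stability. The count of members detected in all samples, 2, was 2 at Ct under 32 and 3 for any Ct, and between 2 and 3 with a sample left out. The single well per assay and 3 samples a group limit all of these values.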
